A study of Mus musculus with 8 samples.

Results

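The regions described here were the H3K27ac peaks of wt P5424 cells that lay inside protein-coding genes and away from gene starts. A peak of the wt list (GRCm38) was taken when its centre fell in the body of a protein-coding gene and more than 2.5 kb from the start of every protein-coding gene. Of the 34553 wt peaks, 13166 (38.1%) met this rule and are called intragenic peaks below. The rest comprised 11224 peaks within 2.5 kb of a gene start and 10163 peaks between genes. P5424 is a mouse cell line that resembles T cell precursors. The study asked what the enhancer IkE120 does for *Ikzf1*, which encodes the lymphoid transcription factor Ikaros. H3K27ac was profiled by ChIP-seq in 1 library of wt cells and 1 library of ΔIkE120 cells, in which both copies of the enhancer had been deleted with CRISPR/Cas9. The ΔIkE120 cells were a single clone obtained by limiting dilution, and whether the ChIP-seq cells were stimulated is not given in the sources used here.

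Acetylation of lysine 27 of histone H3 marks active promoters and active enhancers. Many enhancers of mammalian genes lie in the introns of the gene they act on, or in those of a neighbour, and long developmental genes often hold several of them. In T cell precursors, enhancers of this kind are known in genes for lineage transcription factors and for components of the T cell receptor. The exon and intron structure of the genes was not analysed here, so a peak is placed by its distance from the start and the end of its gene.

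The intragenic peaks were short. Their lengths ran from 215 to 3018 bases with a median of 484 and quartiles of 314 and 835. The median depended on weak peaks, and was 752.5 bases over the 6684 with a −log10 q of at least 3. The median was 904 bases near gene starts and 491 between genes. A length of 1 kb or more was reached by 17.7% of the intragenic peaks, and 129 of them were at least 2 kb long. With 38.1% of the peaks, they held 33.0% of the called bases (8322349 bases). Their median fold enrichment over the background of the peak caller was 2.82, against 3.86 near gene starts and 2.94 between genes. The median −log10 q, the caller's measure of confidence, was 3.04, against 10.4 near gene starts and 3.13 between genes. In length, enrichment and confidence, the intragenic peaks were thus close to the peaks between genes and below those at gene starts.

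The longest intragenic peak, of 3018 bases at chr13:63563113-63566130, lay 8.84 kb into *Ptch1*, the gene of the Hedgehog receptor. Next in length were a peak of 2904 bases at chr15:77798572-77801475 in *Myh9*, which encodes a non-muscle myosin heavy chain, and a peak of 2829 bases at chr2:68958009-68960837 in the ceramide synthase gene *Cers6*. Their fold enrichments were between 2.18 and 2.496, so these were broad rather than high peaks. The ΔIkE120 list covered 93.4% of the bases of the peak in *Ptch1*, 83.9% in *Myh9* and 92.6% in *Cers6*.

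The highest −log10 q, 72.3, belonged to a peak of 429 bases at chr6:103648993-103649421 in *Chl1*, a gene for a neural cell adhesion molecule. It was the only intragenic peak of this gene, lay 139 kb from the gene start and had a fold enrichment of 16.2. The ΔIkE120 list had a peak at nearly the same place, chr6:103648998-103649410, with a fold enrichment of 16.3 and a −log10 q of 72.0. No peak of either list lay within 1 kb of the *Chl1* start. Regions that collect reads in any library were not filtered out here, and whether this peak is such a region was not tested. The next values of −log10 q were 50.5 at chr11:103131988-103132921 in *Hexim2*, which encodes an inhibitor of the elongation factor P-TEFb, and 43.9 at chr7:126502608-126503701 in *Atxn2l*, a gene for an RNA-binding protein. Their fold enrichments were 5.15 and 4.59, and the ΔIkE120 list covered 100% and 97.0% of their bases.

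The 2.5 kb limit had peaks on either side of it. Inside genes, 245 wt peaks lay between 2.0 and 2.5 kb from the nearest start and were left out. Their median length was 757 bases, their median −log10 q 5.43, and 82.9% of them were overlapped by a ΔIkE120 peak. The 220 intragenic peaks between 2.5 and 3.0 kb had a median length of 570.5 bases and a median −log10 q of 4.68, and 73.6% were overlapped.

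At least 1 base of a ΔIkE120 peak was found in 8622 intragenic peaks, or 65.5% (exact 95% interval 64.7% to 66.3%). Over all wt peaks the share was 74.4%. It was 93.4% near gene starts (92.9% to 93.8%) and 65.1% between genes (64.2% to 66.0%). These Clopper-Pearson intervals cover counting only and treat peaks as independent, which neighbouring peaks are not. With 1 library per genotype there is no replicate error to set a difference against, and no test was made. Of the bases in intragenic peaks, 64.1% were covered by the ΔIkE120 list, against 87.7% near gene starts and 62.0% between genes.

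The ΔIkE120 list was shorter, with 29902 peaks. By the same rule 10824 of these (36.2%) were intragenic, 17.8% fewer than in wt cells. Of these, 8663 (80.04%) were overlapped by a wt peak, while 86.4% of all ΔIkE120 peaks were. The 2161 that were not overlapped lay in 1536 genes. Of the 28 ΔIkE120 peaks of *Nfia*, 9 were among them. In *Dennd1a* 6 of 16 were, in *Eif4e3* and *Igf1r* 6 of 10 each, in *Jazf1* 6 of 19 and in *Msi2* 6 of 24. Over all genes it was 2161 of 10824, and a gene with more peaks can hold more of them. The depth of the libraries is unknown, and its part in the number of peaks was not tested.

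Overlap went with the confidence of the wt call. Overlapped intragenic peaks had a median −log10 q of 4.06 and a median length of 677 bases, against 2.08 and 314.5 bases for the 4544 without overlap. When the whole wt list was split at its quartiles of −log10 q, 4629 intragenic peaks fell below 2.42 and 37.0% of them were overlapped. The share was 65.3% of 4100 peaks from there to 4.12, 93.7% of 3239 peaks up to 8.79 and 99.9% of 1198 peaks above. Peaks between genes gave 35.3%, 63.0%, 93.2% and 99.7% in the same classes, and peaks near gene starts 49.2%, 75.6%, 97.0% and 99.97%. Only 9.10% of the intragenic peaks were in the highest class, compared with 58.0% of the peaks near gene starts. By length, 36.6% of the intragenic peaks under 400 bases were overlapped, 70.2% from 400 to 700 bases, 92.7% from 700 to 1000 bases and 99.0% of longer ones. Peaks near gene starts were overlapped at 63.0% under 400 bases.

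Where intragenic peaks were overlapped, the ΔIkE120 peak with most shared bases had a median length of 0.956 times that of the wt peak (quartiles 0.736 and 1.19). The ratio was 0.991 near gene starts and 0.933 between genes. A single wt peak met several ΔIkE120 peaks in 395 cases. The intragenic peaks without overlap that had the highest −log10 q were at chr1:64823291-64823984 in *Plekhm3* (10.1), at chr6:83268130-83268678 in *Slc4a5* (7.91) and at chr6:129049054-129049424 in *Klrb1f* (6.72), chosen after their values were seen. The first was the only peak without overlap above 8.79.

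Intragenic peaks were spread along the whole gene, with more of them toward its start. A peak inside overlapping genes was counted in each, which 122 peaks required, and gave 13320 pairs of a peak and a gene. The strand was known for 13267 pairs. Their median position was 47.5% of the way from gene start to gene end (quartiles 25.7% and 72.5%). The first 50% of the gene held 52.7% of the pairs and 47.8% of the eligible sequence, which is gene body more than 2.5 kb from every coding start. Per Mb of eligible sequence there were 13.4 pairs in the first 10% of the gene, 15.8 in the next 10% and 15.6 from 20% to 30%. The density then went down to 11.6 from 80% to 90% and 11.7 in the last 10%. The last 2.5 kb before the gene end held 594 pairs at 14.2 per Mb, above the values of the last 20% of the gene and near the 13.5 per Mb over all stranded genes.

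Measured in kb, the median distance to the gene's own start was 36.9 kb (quartiles 14.9 and 89.2 kb) and the longest 2185 kb. There were 18.9 pairs per Mb between 2.5 and 5 kb from the start, 19.1 between 5 and 10 kb, 16.9 between 20 and 50 kb, 11.3 between 100 and 200 kb and 5.50 beyond 200 kb. Only genes longer than a given distance enter its class, so the classes hold different genes. Genes of 200 kb or more had 19.2 peaks per Mb with a wt peak within 1 kb of their start, and 4.296 without. The part of gene length in these densities was not tested. Peaks next to the start were also longer and more often overlapped. The median length was 592 bases at 2.5 to 5 kb and 451 bases beyond 200 kb, and the overlapped share 76.2% (73.1% to 79.1%) and 59.2% (56.4% to 62.0%). The median −log10 q went from 4.44 to 2.81 over the same range. Its part and that of gene length in the difference of overlap were not tested.

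Of 18661 protein-coding genes with eligible sequence, 4805 (25.7%) held at least 1 intragenic peak. These host genes were long, with a median of 54.4 kb against 16.6 kb for genes without such a peak. Exactly 1 peak was found in 2160 hosts (45.0%). At the other end, 794 genes held at least 5 peaks, 187 at least 10 and 20 at least 20. The 794 genes accounted for 6371 of the 13320 pairs (47.8%).

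The 11 genes with most intragenic peaks were between 200 and 857 kb long and held 274 of them. Of these, 181 (66.1%) were overlapped, near the 65.5% of all intragenic peaks. *Hivep3*, a gene for a zinc finger transcription factor, led with 30 peaks, of which 18 were overlapped, and the ΔIkE120 list had 23 peaks there. *Clec16a*, whose product acts in autophagy, held 28 peaks (20 overlapped) in the shortest gene body of the group, 14.2 per 100 kb. *Nfia*, a nuclear factor I gene, also held 28 (19 overlapped), and had the same number in ΔIkE120 cells. *Gse1* held 26 peaks (20 overlapped) and the RNA-binding protein gene *Msi2* 25 (19 overlapped). *Arid1b*, which encodes a subunit of the BAF chromatin remodelling complex, held 24 peaks (19 overlapped). The transcription factor genes *Foxp1*, a forkhead gene, and *Rora*, a nuclear receptor gene, held 23 each, with 15 and 14 overlapped. *Tbc1d22a* held 23 peaks (13 overlapped), the phosphodiesterase gene *Pde10a* 22 (13 overlapped) and *Celf2*, a regulator of splicing, 22 (11 overlapped). The peaks of *Rora* began 381 kb from its start, while those of *Hivep3* ran from 4.36 to 368 kb. Median values of −log10 q in these genes lay between 2.71 in *Celf2* and 4.88 in *Gse1*.

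Genes were also ranked by intragenic peaks per 100 kb of eligible sequence. A floor of 5 peaks favours short genes in such a ranking, and short genes led it. Among genes with at least 5 intragenic peaks, *Kcnn4*, a calcium-activated potassium channel of lymphocytes, had 38.8 per 100 kb, with 5 peaks in 12.9 kb of eligible sequence. These lay between 2.93 and 10.6 kb from the start, the first at chr7:24372555-24372963 and the last at chr7:24380220-24380633, and all 5 were overlapped. *Pik3ip1*, an inhibitor of phosphoinositide 3-kinase, held 7 peaks at 33.0 per 100 kb, all between 11.2 and 18.4 kb from the start, and 5 were overlapped. The serine protease gene *Tmprss4* held 7 (29.3 per 100 kb), and *Tmem50b* and *Ubxn11* 6 each (29.0 and 28.3 per 100 kb). *Zap70*, the kinase recruited to the activated T cell receptor, held 5 peaks at 26.99 per 100 kb, of which 3 were overlapped. *Slc37a2*, *Rasa4* and *Dhcr7*, the last an enzyme gene of cholesterol synthesis, had 24.9, 23.6 and 22.0 per 100 kb. Over all eligible genes the density was 13.5 per Mb, and 65.4% of the pairs were overlapped.

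Intragenic peaks lay close to each other. The median gap to the next one on the chromosome was 19.8 kb, and 17.2% of 13146 gaps were under 1 kb. In genes with several, the nearest other was at a median of 5.15 kb. Joined over gaps of up to 10 kb, they formed 8337 groups, of which 5452 were single peaks and 212 held at least 5. The largest groups had 12 peaks each. The group in *Bcl2l1*, which encodes the survival factor Bcl-xL, spanned 51.3 kb at chr2:152766180-152817465, and 11 of its peaks were overlapped. The group in *Fli1*, an ETS family gene, spanned 34.8 kb at chr9:32486975-32521786, and 10 were overlapped. Groups of 11 peaks lay in *Nedd4l*, *Sema4d*, *Stat5b* and *Clec16a*, with between 7 and 10 of their peaks overlapped. The share over all intragenic peaks was 65.5%.

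The label of the cells was checked with gene lists for T cells and for other cells. Genes with eligible sequence are counted, and the share of all such genes that were hosts was 25.7%, at 13.5 pairs per Mb and with 65.4% of pairs overlapped. Of 20 early T lineage transcription factor genes, 18 were hosts, with 99 peaks at 51.3 per Mb. Of 26 genes of the T cell receptor complex and its signalling, 20 were hosts, with 97 peaks at 62.8 per Mb. Of 15 genes for cytokine receptors, homing and adhesion, 9 were hosts, with 20 peaks at 47.0 per Mb. In the B lineage list 5 of 12 genes were hosts, with 7 peaks at 9.31 per Mb, and in the list of myeloid and progenitor genes 6 of 17, with 9 peaks at 6.32 per Mb. The non-blood list had 4 hosts among 18 genes, with 18 peaks at 1.81 per Mb. Chromatin regulators used by most cells had 11 hosts among 20 genes, with 68 peaks at 31.3 per Mb. Counted over all genes of a list, with or without eligible sequence, a peak within 1 kb of the gene start was present for 25 of 26 T cell receptor genes, 17 of 22 early T lineage transcription factor genes and 9 of 16 cytokine receptor, homing and adhesion genes. It was present for 3 of 12 B lineage genes, 3 of 18 myeloid and progenitor genes and 2 of 18 non-blood genes. Chromatin regulators, which do not mark a cell type, had it in 18 of 20, and all stranded genes with eligible sequence in 49.3%. The lists differ in gene length, and no test of them was made.

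Among the T lineage transcription factors, *Ets1*, *Fli1* and *Runx1* held 13 intragenic peaks each, of which 12, 11 and 10 were overlapped, and the E protein gene *Tcf12* held 11 (7 overlapped). *Bcl11b*, needed for commitment to the T lineage, held 8, of which 6 were overlapped. In *Bcl11b*, 5 peaks stood between 72.9 and 83.1 kb from the start, 2 at 38.6 and 39.8 kb and 1 at 3.42 kb. *Myb* and *Tcf3* held 0, and *Hes1* and *Id3* are too short to have eligible sequence. *Ikzf1* itself held 6 peaks, and 8 in ΔIkE120 cells. The longest of the 6, of 1574 bases at chr11:11715000-11716573, was covered at 90.7% by a ΔIkE120 peak, with fold enrichments of 2.27 and 2.31 in their own lists. The next, of 1403 bases at chr11:11724594-11725996, was covered at 85.3%. The only *Ikzf1* peak without overlap, at chr11:11736517-11736933, had the lowest −log10 q of the 6, 1.54. Over the list, 80.8% of the peaks were overlapped (71.7% to 88.0%).

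In the T cell receptor list, *Fyn*, a Src family kinase gene, held 14 intragenic peaks (12 overlapped) and *Nfatc2*, a calcium-regulated transcription factor gene, 10 (5 overlapped). *Cd247*, the zeta chain, held 9 (7 overlapped). *Cd3d*, *Cd3g*, *Cd5*, *Cd6*, *Lat* and *Ptcra* held 0. Over the list 77.3% were overlapped (67.7% to 85.2%). *Il2ra*, the alpha chain of the interleukin-2 receptor, led the cytokine and homing list with 6 (4 overlapped), followed by the integrin gene *Itgae* with 3 and the chemokine receptor genes *Ccr7* and *Ccr9* with 2 each. That list stood at 70.0% (45.7% to 88.1%). Among chromatin regulators *Rere* held 12 and *Hdac7* and *Jarid2* 6 each beside the 24 of *Arid1b*, and 79.4% were overlapped (67.9% to 88.3%).

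The other lists rested on few peaks. In the B lineage list *Blk*, a Src family kinase gene of B cells, held 3, none overlapped, and *Blnk*, *Irf8*, *Pax5* and *Spib* held 1 each, while *Cd79a*, *Ms4a1* and *Ebf1* held 0. *Itgam*, *Spi1* and *Erg* held 2 each in the myeloid and progenitor list, where *Csf1r*, *Lyz2*, *Mpo* and *Gata2* held 0. In the non-blood list, *Rbfox3*, a neuronal splicing factor gene, held 9 and *Ttn*, the gene of the muscle protein titin, 6, *Cdh1* held 2 and *Map2* 1. Overlapped were 42.9% of the peaks in the B lineage list (9.90% to 81.6%), 55.6% in the myeloid and progenitor list (21.2% to 86.3%) and 9 of 18 in the non-blood list (26.0% to 74.0%).

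Hosts more often had a peak at their start. A wt peak lay within 1 kb of the gene start in 57.5% of 4766 hosts with known strand (56.1% to 58.9%), against 46.4% of 13696 other genes (45.6% to 47.3%). It did so in 65.8% of the 187 genes with at least 10 intragenic peaks (58.5% to 72.5%). Only the outermost start was scored. Of 3813 hosts with listed alternative or single starts, 58.1% had a peak at the gene start and 71.6% at any annotated start. For 11044 other genes the shares were 47.3% and 48.3%. An intragenic peak at an alternative start counts in the share for any start, which favours hosts. A start peak below is one at the outermost start. Genes with a start peak had 20.8 intragenic peaks per Mb of eligible sequence, and genes without 8.74. The difference was larger in longer genes. Among genes of 200 kb or more, 85.0% of 286 with a start peak were hosts, at 19.2 peaks per Mb, against 36.0% of 694 without, at 4.296 per Mb. Among genes under 20 kb the densities were 16.3 and 18.1 per Mb. The overlapped share hardly moved with it, at 65.1% with a start peak and 66.0% without.

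Some intragenic peaks lay at further annotated starts inside a gene. The rule uses the outermost start of each gene, whereas the RefSeq promoter table lists alternative starts. Of 12797 intragenic peaks on the chromosomes that this table covers, 864 (6.75%) had their centre within 1 kb of an alternative coding start. Of these, 90.7% were overlapped (88.6% to 92.6%), with a median length of 937.5 bases and a median −log10 q of 8.83. The remaining peaks gave 63.7%, 466 bases and 2.92. Starts of long non-coding RNA genes lay within 1 kb of 317 intragenic peaks (2.41% of all), of which 77.3% were overlapped (72.3% to 81.8%).

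An alternative coding start lay within the intragenic peak itself in 656 cases, in 558 peaks. The 250 bases before these starts had a median GC content of 60.8% and a median of 15 CG dinucleotides. For all 21263 coding starts of the table the medians were 55.6% and 10. These include the 656 themselves and also starts without an H3K27ac peak. Starts within peaks near gene starts were not compared, so the part of acetylation in this difference was not tested. The sequences of 5 such starts in genes with the most, the longest or the highest intragenic peaks are shown as examples, chosen after their values were seen. Of these, 4 were rich in CG, with 32 to 43, and 1 was poor, with 7, so they do not stand for the 656. Starts of the same kind in *Gse1* held 13 and 32 and that in *Pde10a* 21, and are not shown. They are from RefSeq on GRCm38, all on the minus strand and written 5′ to 3′ up to the base before the start, with CG dinucleotides in capitals.

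Celf2, chr2:6872036-6872285: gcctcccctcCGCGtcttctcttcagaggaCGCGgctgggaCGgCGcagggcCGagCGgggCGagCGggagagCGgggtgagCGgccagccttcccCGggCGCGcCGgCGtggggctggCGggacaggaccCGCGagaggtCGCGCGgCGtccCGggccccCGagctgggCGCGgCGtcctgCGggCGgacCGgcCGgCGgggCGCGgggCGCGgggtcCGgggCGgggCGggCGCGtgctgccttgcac
Celf2, chr2:6721663-6721912: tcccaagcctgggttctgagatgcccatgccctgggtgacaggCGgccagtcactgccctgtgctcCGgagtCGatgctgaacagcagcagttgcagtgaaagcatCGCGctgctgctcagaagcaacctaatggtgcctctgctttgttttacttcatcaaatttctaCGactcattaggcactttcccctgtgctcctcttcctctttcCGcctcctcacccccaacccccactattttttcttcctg
Foxp1, chr6:99028299-99028548: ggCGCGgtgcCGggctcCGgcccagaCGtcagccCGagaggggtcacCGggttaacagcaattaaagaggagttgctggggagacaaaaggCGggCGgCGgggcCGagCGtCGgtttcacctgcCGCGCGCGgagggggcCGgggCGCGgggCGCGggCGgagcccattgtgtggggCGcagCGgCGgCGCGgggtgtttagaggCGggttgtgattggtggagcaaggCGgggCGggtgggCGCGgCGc
Ptch1, chr13:63565736-63565985: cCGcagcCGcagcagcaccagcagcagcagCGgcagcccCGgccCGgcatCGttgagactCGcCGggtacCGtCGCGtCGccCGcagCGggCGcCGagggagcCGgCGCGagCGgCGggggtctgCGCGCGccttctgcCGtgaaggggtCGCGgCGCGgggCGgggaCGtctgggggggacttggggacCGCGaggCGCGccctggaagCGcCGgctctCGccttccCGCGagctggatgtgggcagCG
Atxn2l, chr7:126503438-126503687: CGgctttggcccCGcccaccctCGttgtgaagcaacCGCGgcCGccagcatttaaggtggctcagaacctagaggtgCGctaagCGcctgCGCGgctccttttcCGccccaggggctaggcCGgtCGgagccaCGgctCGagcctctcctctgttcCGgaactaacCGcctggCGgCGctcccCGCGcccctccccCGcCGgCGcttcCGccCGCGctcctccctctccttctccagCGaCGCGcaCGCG

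The first *Celf2* start lay 524 kb into the gene, in a peak of 1351 bases with a −log10 q of 25.2, and held 43 CG dinucleotides. The second, 675 kb into the same gene, held 7 in a peak of 1270 bases with a −log10 q of 16.9. The ΔIkE120 list covered 100% and 99.4% of these peaks, while 11 of the 22 peaks of *Celf2* had no overlap. The start shown for *Foxp1* held 34 CG dinucleotides, and another in an intragenic peak of this gene, at position 99266515 and not shown, held 3. The start in *Ptch1*, inside the longest intragenic peak, held 41, and that in *Atxn2l*, inside the peak with a −log10 q of 43.9, 32. Outside these genes, alternative starts of *Runx1* and *Lck*, chosen after their values were seen, lay in peaks of 1633 and 2639 bases. The latter was the only intragenic peak of *Lck*, a Src family kinase gene known to have a distal and a proximal promoter, and 97.2% of its bases were covered by the ΔIkE120 list.

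Short motifs were searched on both strands of the 250 bases. The ETS core CGGAAG was found at 21.2% of the 656 starts within intragenic peaks and at 17.1% of all coding starts, and among the 5 sequences shown only in that of *Atxn2l*. The RUNX core TGTGGT was found at 10.8% and 12.4%, the E box CAGCTG at 10.1% and 12.1%, and the TATA box TATAAA at 4.27% and 11.6%. The ETS core contains a CG and is therefore not independent of the CG count. TATAAA contains no G or C and is therefore not independent of the GC content. The 656 starts lay in 558 peaks, and some of their sequences overlap each other. All coding starts again include those without a peak.

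Between the genotypes, the number of intragenic peaks per gene was more often higher in wt cells, whose list was longer as a whole. Of 5136 genes with at least 1 in either list, the number was higher in wt cells in 2244, lower in 911 and equal in 1981. Choosing genes by their count in 1 list favours that list. Of the 794 genes with at least 5 in wt cells, the number was higher there in 559 and lower in 115, while of the 582 with at least 5 in ΔIkE120 cells it was higher in wt cells in 292 and lower in 170. All wt peaks were overlapped in 73 of the 794 genes. None were in 2, *Wdr70* with 6 peaks and *Tdrd9* with 5. Over all intragenic peaks 4544 of 13166 had no overlap, and a gene with more peaks can hold more without overlap. The most peaks without overlap were in *Hivep3* (12 of 30), *Celf2* (11 of 22), *Ptprn2* (10 of 16) and *Tbc1d22a* (10 of 23). They were followed by 9 genes with 9 each, namely *Cers6* (of 19), *Lpp* (of 21), *Nfia* (of 28), *Pde10a* (of 22), *Prkca* (of 16), *Rora* (of 23), *Rptor* (of 18), *Sox6* (of 16) and *Tln2* (of 16).

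By called bases, the largest difference was in *Ptprn2*, a gene for a phosphatase-like protein of secretory granules, with 9719 bases in wt cells and 4210 in ΔIkE120 cells. *Rora* went from 14149 to 9002 bases, *Msra*, a methionine sulfoxide reductase gene, from 14336 to 9404, *Celf2* from 13591 to 9194 and the calcium channel gene *Cacna1d* from 16613 to 12287. Differences in the other direction were smaller. *Macf1*, which encodes a linker of actin and microtubules, had 6287 bases in 8 peaks in wt cells and 8693 bases in 13 peaks in ΔIkE120 cells. *Accsl* went from 888 to 2952 bases, *Focad* from 4027 to 6017, *Zswim6* from 3573 to 5485 and *Gm50595* from 4584 to 6378. All wt peaks of *Macf1*, *Accsl* and *Zswim6* were overlapped. Called bases move with how much was called in each library, and over all intragenic peaks they were 8322349 in the wt and 6904005 in the ΔIkE120 list. The median fold enrichment of intragenic peaks was 2.82 and 2.89 in their own lists.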

How the data were processed

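H3K27ac ChIP-seq of wt and ΔIkE120 P5424 cells was analysed from 1 deposited peak list per library. The submitters' processing notes name Bowtie2 2.3.4.3 and MACS2 2.1.1, and an input sample is described, but peak-calling settings are not given in the sources used here. The authors deposited broad peaks with a score, a fold enrichment (ratio to the caller's background), a −log10 p-value and a −log10 q-value. The score was 10 times the −log10 q-value. Read depth is unknown, and fold enrichments were not compared between genotypes by a test. The 4C-seq libraries were not used here.

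Gene bodies were those of RefSeq (GRCm38.p6), with 21900 protein-coding genes. The strand came from the RefSeq promoter table for 17492 genes and by symbol from GENCODE M1 for 4044. For the other 364 both ends were used as starts, and these genes were left out of positions along the gene. An overlap was at least 1 shared base. Intervals are exact (Clopper-Pearson) at 95%, and no test was made. Overlaps and classes were checked on 2400 simulated peaks against an exhaustive search, with 0 differences. Calculations ran in Python 3.11.15 (numpy 2.4.6, scipy 1.17.1, pandas 2.3.3).

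Named are the 10 genes with most intragenic peaks and the 10 with most per 100 kb among genes with at least 5 (ties included in the former), up to 4 genes of each list, the 5 genes with most peaks without overlap (ties included), the 5 with the largest difference in called bases in either direction, and the 3 longest and 3 most confident peaks. Some genes that these rules select are not reported here. Other genes were named after their values were seen. The rule, the lists and the sequences shown were chosen with earlier results of these data known.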

Additional observations from a re-analysis of the deposited data

How the results depend on the processing

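The overlapped share, 65.5% as reported, moved with the settings. It was 57.3% when 50% of the wt peak had to be covered, 71.2% with ΔIkE120 peaks extended by 500 bases, 69.9% with −log10 q of at least 3 in both lists, 95.4% when wt peaks below that list's median −log10 q were dropped, which left 4437 intragenic peaks, and 74.4% with equal numbers of top-scoring peaks. It was 67.1% at a distance of 1 kb, 67.2% with peaks under 1 kb apart joined and 63.8% with all annotated starts of coding genes, a setting chosen after seeing the data. At 5 kb, from the peak edge and with non-coding starts it was between 64.8% and 65.2%, inside its interval.

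The number of intragenic peaks fell to 6684 at −log10 q of at least 3 and stayed within 1.5 times 13166 in the other 6 settings tried for it, as did the number of host genes in all 5. The median length (484 bases) was 752.5 at −log10 q of at least 3, 501 at 1 kb, 666 with joined peaks and 467 with all annotated starts. The median position (47.5%) was 45.9% at −log10 q of at least 3, 44.1% at 1 kb, 49.6% at 5 kb, 46.4% in genes of 20 kb or longer and 49.1% with all annotated starts. The calling threshold and depth limit which weak peaks are listed, and with 1 library per genotype the spread between preparations is unknown.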

Other observations

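Chromosomes differed in how many intragenic peaks they held per Mb of eligible sequence. Chromosome 11 had 24.5 per Mb (1273 peaks), chromosome 15 17.8 and chromosome 2 16.6, while chromosome 8 had the lowest value of the autosomes, 10.7. The X chromosome had 2.91 per Mb (126 peaks). In the ΔIkE120 list the values were 20.4 on chromosome 11, 8.57 on chromosome 8 and 2.47 on the X chromosome. Peaks near gene starts per 100 coding genes were 64.9 on chromosome 11, 58.9 on chromosome 8 and 34.0 on the X chromosome. The overlapped share ran from 61.5% on chromosome 14 (57.5% to 65.3%) to 74.6% on the X chromosome (66.1% to 81.9%).

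Intragenic peaks also shared bases with 10 annotated miRNA hairpins, of which 6 lay wholly inside a peak. Of the 76 bases of Mir181a-2, a member of the miR-181 family that acts in thymocytes, 34 were at the edge of a peak of 660 bases in *Nr6a1* at chr2:38852109-38852768. The ΔIkE120 peak there, at chr2:38852377-38852846, held the whole hairpin and covered 59.4% of the wt peak. Mir8119 lay wholly inside the peak of 2639 bases in *Lck*.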
